A study of Mus musculus with 32 samples.

Results

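The Wnt ligands, their receptors and secreted inhibitors, and the proteins that carry the signal to the nucleus are described here in muscle of mice with an inducible DUX4 gene. DUX4 is the transcription factor whose misexpression in muscle causes facioscapulohumeral dystrophy. Members were chosen by symbol and not by any measured value, and 52 of the 43035 genes in the tables belong to the family. They comprise 19 Wnt ligands, 4 R-spondins, 12 receptors (10 Frizzled proteins, Lrp5 and Lrp6), 10 secreted inhibitors of the Dkk, Sfrp and Wif1 families, and 7 relay and nuclear proteins.

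In the branch of Wnt signalling that works through beta-catenin, a ligand binds a Frizzled receptor together with the co-receptor Lrp5 or Lrp6. This stops the Axin and Apc complex from destroying beta-catenin (Ctnnb1), which then enters the nucleus and acts with the DNA-binding proteins Lef1, Tcf7, Tcf7l1 and Tcf7l2. R-spondins bind Lgr receptors and keep Frizzled proteins at the cell surface, while secreted Frizzled-related proteins and Dickkopf proteins block the ligand or the co-receptor. In skeletal muscle the pathway is known for roles in satellite cells, the stem cells of the fibre, and in the fibro-adipogenic progenitors (FAPs) of the connective tissue.

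The study holds 32 RNA-seq libraries in 8 groups, all from mice given doxycycline in their chow, so that WT mice received the drug as well. Whole muscle at 2 weeks came from mice with inducible DUX4 (IDUX.2Weeks, n = 5) and from WT mice (WT.2Weeks, n = 5), and whole muscle at 16 weeks from the same 2 genotypes (IDUX.16Weeks, n = 4; WT.16Weeks, n = 4). CD31+ endothelial cells were sorted from hind limb (CD31DUX, n = 4; CD31WT, n = 3), as were PDGFRa+ FAPs (PDGDUX, n = 4; PDGWT, n = 3). Strain, sex, the starting point from which the weeks are counted, the muscles taken as whole muscle, the age of the sorted cells, the cells that express the transgene and whether each library is a separate animal are not stated in the labels, so the p-values measure spread between these libraries. Levels are in CPM, counts scaled to a common library total by the TMM method, and a gene was called at a Benjamini-Hochberg adjusted p under 0.05 in edgeR's quasi-likelihood test, adjusted over all genes of the fit. Each fold change is a log2 value of DUX4 over WT with its SE.

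Total counts ran from 6.07 to 20.7 M per library, and a count of 0 allowed up to 0.155 to 0.494 CPM in whole muscle and up to 0.145 to 0.273 CPM in sorted cells (3 counts, counting error only). WT.16Weeks replicate 1 stood apart from the other WT libraries of that time: its 8 FAP markers summed to 137 CPM, against 437 to 536, and its leukocyte markers to 172 CPM, against 22.4 to 27. The 2-week libraries were also split into replicates 1 to 3 and replicates 4 and 5 of each genotype, a split that the labels do not give and that was chosen with earlier results of these data known. Fat cell markers summed to 0.943 to 6.19 CPM in replicates 4 and 5 and to 27.9 to 170 CPM in replicates 1 to 3, but by the chi-square of their counts per gene WT.2Weeks replicate 5 lay nearer to replicates 1 to 3 (38.9 to 43.9) than to replicate 4 (87.8), so the split is only an alternative here. The CD31+ libraries carried endothelial Pecam1 (855 to 1404 CPM) but also the FAP gene Dcn (1557 to 5830 CPM), and the PDGFRa+ libraries carried Pdgfra (839 to 1308 CPM) with Pecam1 at 18.1 to 63.7 CPM. In bulk samples, fewer cells of a type and less RNA per cell cannot be told apart.

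Wnt3, Rspo2, Fzd2, Fzd4 and Lef1 passed the test in more than 1 of the DUX4 comparisons, and they lie on GRCm38 as follows. The ligand gene Wnt3 (ENSMUSG00000000125) is at chr11:103774150-103817957 on the plus strand, and the R-spondin gene Rspo2 (ENSMUSG00000051920) is at chr15:43020794-43170826 on the minus strand. Of the receptor genes, Fzd2 (ENSMUSG00000050288) is at chr11:102604396-102608058 and Fzd4 (ENSMUSG00000049791) at chr7:89404355-89413134, both on the plus strand. Lef1 (ENSMUSG00000027985) is at chr3:131110471-131224356 on the plus strand.

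Start-site windows run from 250 bases before to 50 after the RefSeq start (GRCm38.p6, plus strand). They are shown for 3 of these genes, Wnt3, Lef1 and Fzd4. The promoter annotation used held no entry for Rspo2 or Fzd2, so their windows were neither shown nor searched. For Lef1 the first and the last of its 4 annotated starts are given. Capitals mark a match to the binding motif of the Lef1 and Tcf7 proteins, searched on both strands as the letters CTTTG and then any pair made of the letters A and T.
Wnt3, chr11:103773925-103774224: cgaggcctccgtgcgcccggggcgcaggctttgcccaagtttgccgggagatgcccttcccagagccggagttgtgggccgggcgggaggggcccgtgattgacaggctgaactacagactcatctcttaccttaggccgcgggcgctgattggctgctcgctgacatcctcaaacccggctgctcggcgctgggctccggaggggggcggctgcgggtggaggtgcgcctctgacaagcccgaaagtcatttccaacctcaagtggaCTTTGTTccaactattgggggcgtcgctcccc
Lef1 first start, chr3:131110047-131110346: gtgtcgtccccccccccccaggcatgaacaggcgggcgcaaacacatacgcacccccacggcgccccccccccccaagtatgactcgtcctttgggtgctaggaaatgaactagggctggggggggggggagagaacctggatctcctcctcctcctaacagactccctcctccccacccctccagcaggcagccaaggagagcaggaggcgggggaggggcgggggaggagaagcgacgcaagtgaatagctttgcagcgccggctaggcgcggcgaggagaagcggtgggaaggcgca
Lef1 last start, chr3:131156044-131156343: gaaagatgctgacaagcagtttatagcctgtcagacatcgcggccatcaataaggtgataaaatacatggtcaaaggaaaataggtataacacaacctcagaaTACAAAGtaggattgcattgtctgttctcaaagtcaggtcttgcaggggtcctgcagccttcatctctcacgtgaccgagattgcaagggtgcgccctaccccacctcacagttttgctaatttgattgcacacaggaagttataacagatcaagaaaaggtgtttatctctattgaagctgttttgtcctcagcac
Fzd4, chr7:89404116-89404415: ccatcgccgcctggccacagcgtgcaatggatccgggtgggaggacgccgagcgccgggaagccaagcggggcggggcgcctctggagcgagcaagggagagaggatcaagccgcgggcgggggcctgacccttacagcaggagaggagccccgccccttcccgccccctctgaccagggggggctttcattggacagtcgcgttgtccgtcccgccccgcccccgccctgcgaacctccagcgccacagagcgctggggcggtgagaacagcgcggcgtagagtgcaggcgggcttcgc
The Wnt3 window held 1 match, CTTTGTT from base 19 to base 25 after the start, and the last Lef1 window held 1 match on the minus strand, from 147 to 141 bases before the start. Among all 32851 windows of this length 16.9% held a match, as did 7 of the 44 windows of member genes (15.9%), those of Dkk1, Fzd7, Lef1, Tcf7l2, Wnt11, Wnt3 and Wnt5b. A match describes these letters and is not evidence of binding. The long binding motif of DUX4 was found in 53 of the 32851 windows (0.161%) and in none of the 44, which says nothing of sites outside them. The 44 windows belong to 35 of the 52 members. The other members, Rspo2 and Fzd2 among them, had no window and were not searched for either motif.

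The first comparison set DUX4 muscle against WT muscle at the early time. At 2 weeks, 36 of the 52 members had enough counts to be tested, and 5 of the 36 were called (13.9%), against 17.6% of all 15396 genes tested. The ligand Wnt3, the R-spondin Rspo2 and the receptor Fzd2 rose (11.2% of all genes were called higher), and the receptor Fzd4 and the co-receptor Lrp5 fell (6.47% of all genes were called lower). No secreted inhibitor (7 tested) and no relay or nuclear protein (7 tested) was called.

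Rspo2, which sharpens Wnt signals and is known for its part at the neuromuscular junction and in limb muscle, had 1.05, 3.63, 1.02, 1.24 and 1.87 CPM in IDUX.2Weeks, against 0.0817, 0, 0.0918, 0.0676 and 0 CPM in WT.2Weeks. Every DUX4 library was above every WT library, and the DUX4 libraries held 136 counts in all, against 3 in WT. The ratio of these counts was 34.8, with a 95% counting interval of 11.7 to 171, and the fitted change was 4.88 ± 0.66 (adjusted p = 7.97e-05). It was the only member called within both parts of that split of the 2-week libraries (4.73 ± 0.90, adjusted p = 0.00424, in replicates 1 to 3; 5.05 ± 1.06, adjusted p = 0.0313, in replicates 4 and 5).

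Wnt3, a ligand of the beta-catenin branch, had 0.654, 0.953, 0.19, 0.387 and 1.31 CPM in IDUX.2Weeks, against 0, 0, 0.184, 0.0676 and 0 CPM in WT.2Weeks. The groups did not overlap, but the lowest DUX4 library and the highest WT library lay close together. The counts were 53 with DUX4 and 3 in WT, a ratio of 13.6 (interval 4.39 to 67.8), and the fitted change was 3.55 ± 0.78 (adjusted p = 0.00458). Neither part of the split passed the test alone (adjusted p = 0.0633 in replicates 1 to 3 and 0.103 in replicates 4 and 5). Both genes were low, at 3.63 CPM or less in every library.

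Among the receptors, Fzd2 had 8.64, 12.2, 5.52, 8.05 and 8.43 CPM in IDUX.2Weeks, against 5.23, 2.6, 3.95, 3.31 and 2.55 CPM in WT.2Weeks. The groups did not overlap, with a change of 1.27 ± 0.33 (adjusted p = 0.0138), which did not pass within replicates 1 to 3 alone (1.10 ± 0.47, adjusted p = 0.142) or replicates 4 and 5 alone (1.49 ± 0.56, adjusted p = 0.233). Fzd4, the receptor of Norrin as well as of Wnts and a gene known from blood vessels, had 89.6, 54, 88.9, 85.3 and 52.9 CPM in IDUX.2Weeks, against 165, 198, 182, 103 and 77.2 CPM in WT.2Weeks. The 3 highest WT values were those of replicates 1 to 3, and WT.2Weeks replicate 5 alone overlapped the DUX4 range. The change of -0.97 ± 0.25 (adjusted p = 0.0129) was -1.28 ± 0.23 in replicates 1 to 3 (adjusted p = 0.00327) and -0.38 ± 0.31 in replicates 4 and 5 (adjusted p = 0.668).

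Lrp5 had 24.1, 25, 32.9, 41.5 and 28.5 CPM in IDUX.2Weeks, against 37.2, 38.1, 49.9, 44.8 and 42.7 CPM in WT.2Weeks, a change of -0.49 ± 0.15 (adjusted p = 0.0309). The ranges overlapped through IDUX.2Weeks replicate 4, and the call was lost without any single one of 6 of the 10 libraries (IDUX.2Weeks replicates 1, 2 and 5, WT.2Weeks replicates 3, 4 and 5; adjusted p up to 0.091). It was -0.67 ± 0.18 in replicates 1 to 3 (adjusted p = 0.0296) and -0.32 ± 0.22 in replicates 4 and 5 (adjusted p = 0.595). Markers of endothelial cells, the cells in which Fzd4 is best known, summed to 199 to 564 CPM in IDUX.2Weeks and 416 to 722 CPM in WT.2Weeks with none of the 8 called, and muscle fibre markers summed to 65622 to 136223 CPM and 135793 to 163052 CPM with 6 of 8 lower. Satellite cell markers summed to 62.3 to 98.1 CPM in IDUX.2Weeks and 36.8 to 55.7 CPM in WT.2Weeks with 1 of 5 higher, and macrophage and leukocyte markers to 63.7 to 190 CPM and 18.7 to 125 CPM with 2 of 7 higher. FAP markers overlapped between the groups (1103 to 1996 CPM in IDUX.2Weeks, 918 to 2800 CPM in WT.2Weeks), and per 1000 CPM of their sum, a scale chosen after the data were seen, Fzd2 was at 5.74 ± 1.96 CPM in IDUX.2Weeks and 2.33 ± 0.729 CPM in WT.2Weeks (SD, n = 5 each). The part of these cell types in the changes was not tested.

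**Figure D1:**
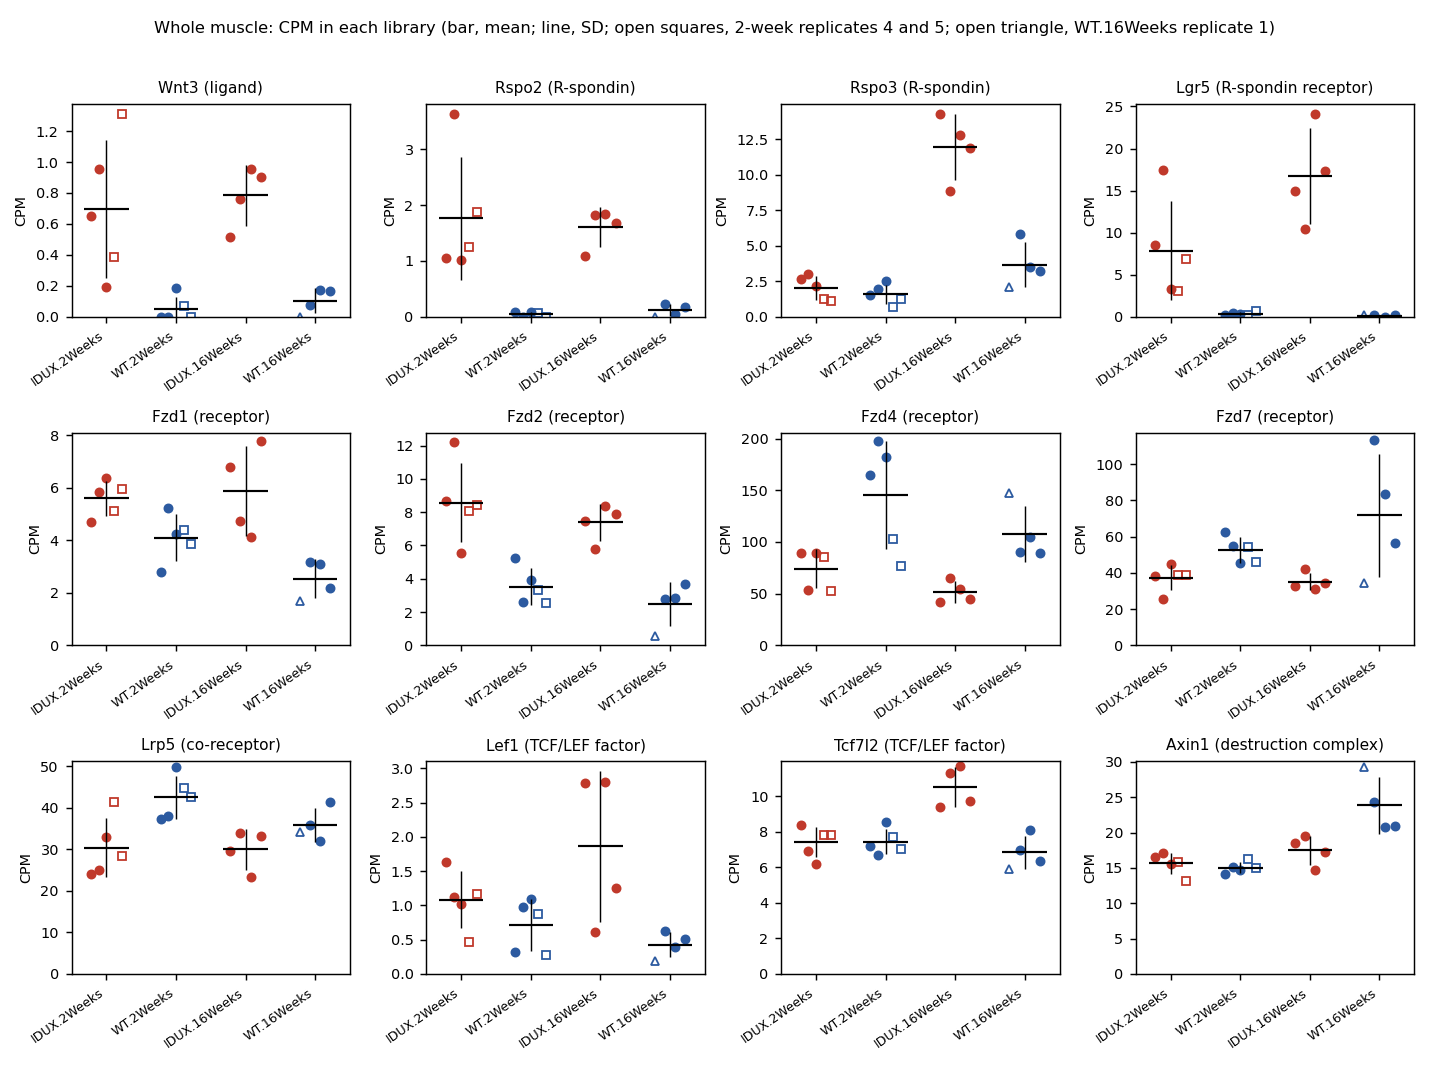
CPM (vertical axes, from 0) in each whole-muscle library for the 11 members called at either time and for Lgr5, the R-spondin receptor, with DUX4 in red left of WT in blue at each time; bars are means and lines SDs. Rspo2 was at 1.02 CPM or more in every DUX4 library and at 0.233 CPM or less in every WT library, and Fzd4 in WT.2Weeks was high in replicates 1 to 3 (filled) and lower in replicates 4 and 5 (open squares).

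The second comparison did the same at the later time. At 16 weeks 10 of the 36 tested members were called (27.8%), against 26.6% of all genes tested. The 7 that rose (14.1% of all genes did) were Wnt3, Rspo2, Rspo3, Fzd1, Fzd2, Lef1 and Tcf7l2, and the 3 that fell (12.5% of all genes did) were Fzd4, Fzd7 and Axin1. Rspo2, Wnt3 and Fzd2 were thus higher and Fzd4 was lower at both times. These comparisons share no library.

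Rspo2 had 1.08, 1.83, 1.84 and 1.68 CPM in IDUX.16Weeks, against 0, 0.233, 0.0566 and 0.168 CPM in WT.16Weeks (103 counts against 5, ratio 16, interval 6.63 to 50.3; fitted change 3.87 ± 0.68, adjusted p = 0.000671). A second R-spondin gene, Rspo3, known for its role in blood vessel growth, had 14.3, 8.84, 12.8 and 11.9 CPM in IDUX.16Weeks, against 2.08, 5.83, 3.51 and 3.2 CPM in WT.16Weeks (1.71 ± 0.38, adjusted p = 0.00339). A gene on the opposite strand, Gm48159, overlaps an exon of Rspo3, and whether counting used strand is not given in the sources used here. Wnt3 had 0.518, 0.762, 0.953 and 0.904 CPM in IDUX.16Weeks, against 0, 0.0777, 0.17 and 0.168 CPM in WT.16Weeks (52 counts against 5, ratio 8.07, interval 3.24 to 25.9; fitted change 2.90 ± 0.78, adjusted p = 0.0117). All 3 genes were higher in each DUX4 library than in any WT library. At 2 weeks Rspo3 had stood at 1.11 to 2.98 CPM in IDUX.2Weeks and 0.676 to 2.48 CPM in WT.2Weeks (0.38 ± 0.36, adjusted p = 0.517).

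The receptors moved in both directions. Fzd1 had 6.78, 4.73, 4.13 and 7.79 CPM in IDUX.16Weeks, against 1.69, 3.18, 3.11 and 2.19 CPM in WT.16Weeks (1.2 ± 0.25, adjusted p = 0.0025). For Fzd2 the values were 7.49, 5.79, 8.39 and 7.88 CPM in IDUX.16Weeks, against 0.586, 2.8, 2.83 and 3.7 CPM in WT.16Weeks (1.62 ± 0.38, adjusted p = 0.00548). Neither gene overlapped between the groups. Fzd4 had 42.2, 65.1, 54.6 and 44.7 CPM in IDUX.16Weeks, against 147, 89.9, 105 and 89.5 CPM in WT.16Weeks (-1.06 ± 0.28, adjusted p = 0.0104), again without overlap. Fzd7, a receptor known from satellite cells, had 32.8, 41.9, 31.1 and 34.5 CPM in IDUX.16Weeks, against 34.3, 113, 83.3 and 56.2 CPM in WT.16Weeks (-1.04 ± 0.26, adjusted p = 0.0082). It overlapped only through WT.16Weeks replicate 1, the library that stood apart.

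Of the nuclear factors, Lef1 had 2.78, 0.61, 2.8 and 1.25 CPM in IDUX.16Weeks, against 0.195, 0.621, 0.396 and 0.505 CPM in WT.16Weeks (2.16 ± 0.56, adjusted p = 0.00887). Its lowest DUX4 library lay just under its highest WT library. Tcf7l2, a factor known from muscle connective tissue, had 9.42, 11.3, 11.7 and 9.73 CPM in IDUX.16Weeks, against 5.93, 6.99, 8.1 and 6.39 CPM in WT.16Weeks (0.61 ± 0.14, adjusted p = 0.00376). Axin1, the scaffold of the complex that destroys beta-catenin, had 18.5, 19.5, 14.7 and 17.2 CPM in IDUX.16Weeks, against 29.3, 24.4, 20.8 and 20.9 CPM in WT.16Weeks (-0.45 ± 0.12, adjusted p = 0.0129). Neither Tcf7l2 nor Axin1 overlapped between the groups.

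All 10 calls held with any single library left out. With WT.16Weeks replicates 1 and 4 both left out, Fzd4 (-0.93, adjusted p = 0.0549), Lef1 (1.89, adjusted p = 0.0624) and Wnt3 (2.53, adjusted p = 0.0612) no longer passed. FAP markers summed to 728 to 1525 CPM in IDUX.16Weeks and 137 to 536 CPM in WT.16Weeks, with 4 of 8 called higher and none at 0, and muscle fibre markers summed to 57561 to 94115 CPM and 137859 to 160501 CPM, with 4 of 8 lower. Endothelial markers summed to 286 to 350 CPM in IDUX.16Weeks and 206 to 470 CPM in WT.16Weeks, with none of 8 called. These overlapped only through WT.16Weeks replicate 1 (206 CPM), the other WT.16Weeks libraries being at 411 to 470 CPM. Tendon cell markers summed to 199 to 370 CPM in IDUX.16Weeks and 41.9 to 79.8 CPM in WT.16Weeks (1 of 5 higher), fat cell markers to 35.6 to 113 CPM and 6.39 to 20.5 CPM (none of 4 tested called), and lymphatic markers to 30.1 to 46.4 CPM and 22.1 to 25.8 CPM (1 of 5 higher), each without overlap. Macrophage and leukocyte markers summed to 74.4 to 196 CPM in IDUX.16Weeks and 22.4 to 172 CPM in WT.16Weeks (1 of 7 higher). Satellite cell markers summed to 69.8 to 88.8 CPM and 42.5 to 148 CPM (1 of 5 higher). Both overlapped only through WT.16Weeks replicate 1, the other WT.16Weeks libraries being at 22.4 to 27 CPM and 42.5 to 46.9 CPM. The part of these cell types in the changes was not tested. A scale per 1000 CPM of summed FAP markers was chosen after the data were seen. On it Fzd1 was at 5.49 ± 0.266 CPM in IDUX.16Weeks and 7.35 ± 3.35 CPM in WT.16Weeks (SD, n = 4 each). The highest Fzd1 value in WT.16Weeks, 12.3 CPM, was that of replicate 1. Fzd2 was at 7.43 ± 2.82 CPM in IDUX.16Weeks and 5.89 ± 1.81 CPM in WT.16Weeks.

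No member was called for a difference between the DUX4 effects at 16 and 2 weeks (0 of 36 with edgeR, DESeq2 and limma voom), and over all genes 46 were called (0.299%). At an unadjusted p under 0.05 in edgeR there were 10 of the 36 members and 2721 of all 15396 genes tested. The differences nearest to a call were those of Tcf7l2 (0.62 ± 0.18, adjusted p = 0.144) and Axin1 (-0.51 ± 0.17, adjusted p = 0.164). Members called at 16 weeks and not at 2 weeks are therefore not shown to respond differently at the 2 times.

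Wnt pathway genes outside the family were drawn up as lists of 84 genes in all, with earlier results of these data known. Of the 75 tested in whole muscle, 10 rose and 11 fell at 2 weeks, and 15 rose and 20 fell at 16 weeks, with median changes of -0.08 and -0.12 on the log2 scale, against -0.01 and 0.01 over all genes. Over all genes, 11.2% were called higher and 6.47% lower at 2 weeks, and 14.1% higher and 12.5% lower at 16 weeks, and nothing particular to these lists is read from their counts. In 2-week replicates 4 and 5 alone, Ryk, Apc, Pygo2, Pygo1 and Nfatc3 kept direction but did not pass (adjusted p = 0.405, 0.509, 0.225, 0.268 and 0.163). Lgr5, a receptor of R-spondins and a known Wnt target, had 8.5, 17.5, 3.3, 3.02 and 6.84 CPM in IDUX.2Weeks, against 0.245, 0.434, 0.275, 0.203 and 0.66 CPM in WT.2Weeks (4.44 ± 0.55, adjusted p = 3.37e-05). At 16 weeks it had 15, 10.4, 24.1 and 17.3 CPM in IDUX.16Weeks, against 0.195, 0.155, 0 and 0.168 CPM in WT.16Weeks (1168 counts against 6, ratio 151, interval 69.2 to 412; fitted change 7.05 ± 0.72, adjusted p = 7.22e-06). Lgr5 and its ligand gene Rspo2 were thus both near 0 in WT muscle and higher in every DUX4 library at both times.

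Of the genes for ligand secretion, Wls, whose product carries Wnts to the cell surface, rose at both times. It averaged 41.5 ± 7.26 CPM in IDUX.2Weeks and 12.1 ± 3.19 CPM in WT.2Weeks (SD, n = 5 each; 1.78 ± 0.23, adjusted p = 4.07e-05), and 36.6 ± 2.97 CPM in IDUX.16Weeks and 11.3 ± 4.16 CPM in WT.16Weeks (SD, n = 4 each; 1.69 ± 0.25, adjusted p = 0.000203). Draxin, which encodes a secreted guidance protein able to bind Lrp6, also rose (4.30 ± 0.63 at 2 weeks, adjusted p = 0.00017; 5.32 ± 0.75 at 16 weeks, adjusted p = 0.000123), with 1.55 to 9.17 CPM in IDUX.2Weeks, 0.0676 to 0.49 CPM in WT.2Weeks, 4.88 to 7.75 CPM in IDUX.16Weeks and 0 to 0.388 CPM in WT.16Weeks. In the list of other receptors and receptor turnover (13 tested) 1 rose and 3 fell at 2 weeks and 3 rose and 2 fell at 16 weeks, the falls including the Wnt-binding kinase gene Ryk (-0.37 ± 0.10, adjusted p = 0.012; -0.71 ± 0.11, adjusted p = 0.000214).

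In the list of other secreted inhibitors (4 tested), 3 rose at 16 weeks, Draxin among them and Igfbp4, whose product binds Lrp6 and Frizzled (0.84 ± 0.19, adjusted p = 0.00407). In the destruction complex and relay list (20 tested), 3 rose and 1 fell at 2 weeks, where Ctnnbip1, an inhibitor of beta-catenin, changed by 1.07 ± 0.18 (adjusted p = 0.000443) and Apc by 0.47 ± 0.12 (adjusted p = 0.0137, lost without IDUX.2Weeks replicate 5 at 0.0616). At 16 weeks none rose and 6 fell, among them the casein kinase genes Csnk1e (-0.95 ± 0.14, adjusted p = 0.000131) and Csnk1a1 (-0.53 ± 0.12, adjusted p = 0.0047). Of the nuclear partners (9 tested) 2 rose and 2 fell at 2 weeks and 2 rose and 3 fell at 16 weeks. Pygo2, a partner of beta-catenin, rose at both times (0.88 ± 0.15 and 0.66 ± 0.16, adjusted p = 0.000533 and 0.00657), while Pygo1 fell at 2 weeks (-0.84 ± 0.16, adjusted p = 0.00204) and Bcl9l at 16 weeks (-0.77 ± 0.16, adjusted p = 0.00206).

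The list of commonly used Wnt targets had 10 tested genes, of which 1 rose at 2 weeks, Lgr5, and 4 rose and 1 fell at 16 weeks. Ccn4, a matricellular gene, rose at 16 weeks (2.52 ± 0.51, adjusted p = 0.00197). Axin2, a member of the family and a standard readout of beta-catenin signalling, averaged 8.87 ± 3.29 CPM in IDUX.2Weeks and 10.6 ± 1.25 CPM in WT.2Weeks (-0.26 ± 0.24, adjusted p = 0.499), and 12.6 ± 1.02 CPM in IDUX.16Weeks and 8.92 ± 3.48 CPM in WT.16Weeks (0.49 ± 0.26, adjusted p = 0.181). The groups overlapped at both times. In the planar polarity and calcium branch (21 tested) 2 rose and 5 fell at 2 weeks and 4 rose and 8 fell at 16 weeks, led by the kinase gene Camk2d (1.55 ± 0.14 and 1.33 ± 0.16, adjusted p = 1.02e-06 and 2.21e-05) and the factor gene Nfatc3 (-0.73 ± 0.12 and -0.79 ± 0.13, adjusted p = 0.000326 and 0.000412).

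**Figure D2:**
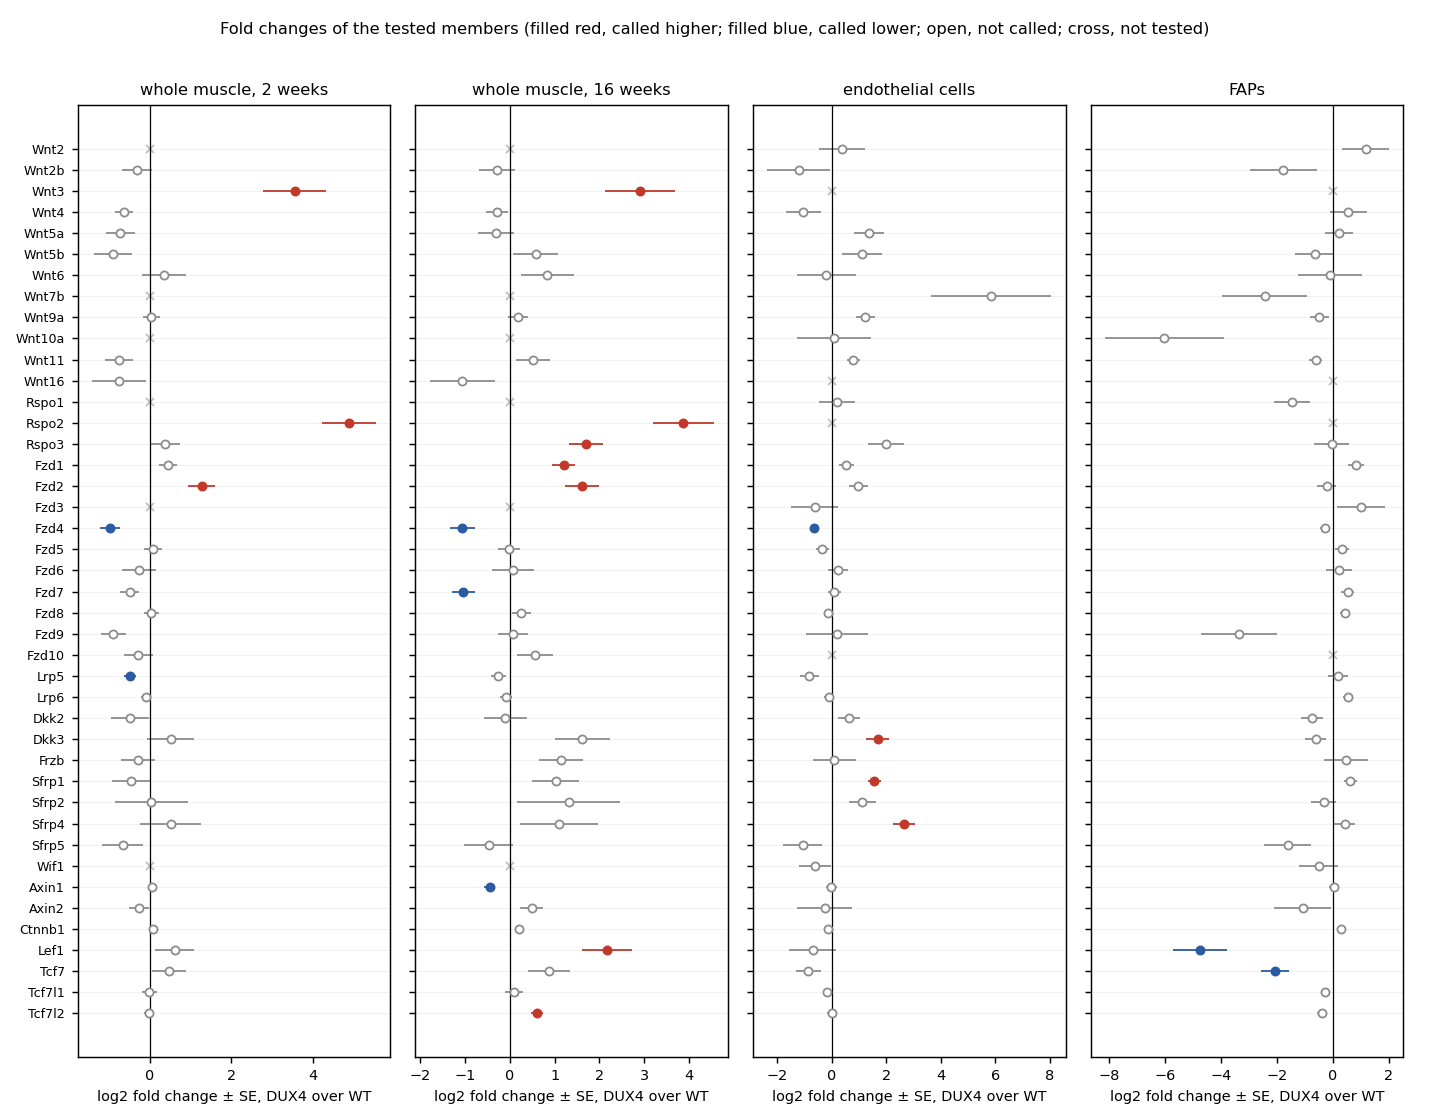
Log2 fold change with its SE (horizontal axes, each with its own range) of every member tested in at least 1 of the DUX4 comparisons, as edgeR fitted it. Fzd4 is the member called in 3 of the 4 comparisons, lower in each, and Lef1 was higher in whole muscle at 16 weeks (2.16) and lower in FAPs (-4.75).

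In the sorted cells Wnt3 had no count in any of the 14 libraries. Rspo2 had none in 13 of 14, and 0.406 CPM in PDGWT replicate 2, above the 0.181 CPM that a count of 0 allows there. Lgr5 was at 0.0549 to 2.18 CPM in CD31DUX, 0.882 to 1 CPM in CD31WT, 0 to 1.23 CPM in PDGDUX and 0.385 to 1.83 CPM in PDGWT. The sorted cells and whole muscle differ in RNA input and library kit, and the age of the sorted cells is not given, so these levels are set side by side without a test.

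The third comparison, in sorted endothelial cells, called 4 of 38 tested members (10.5%), against 5.07% of all 17008 genes tested. The 3 that rose were secreted inhibitors, Sfrp1, Sfrp4 and Dkk3, of 8 inhibitors tested, and the receptor Fzd4 fell. Over all genes, 3.72% were called higher and 1.35% lower. Sfrp1 (ENSMUSG00000031548), which binds Wnts outside the cell, had 39.7, 48.9, 40.4 and 41.4 CPM in CD31DUX, against 17.3, 8.45 and 17.2 CPM in CD31WT (1.57 ± 0.23, adjusted p = 0.000558). For its relative Sfrp4 (ENSMUSG00000021319) the values were 55.2, 102, 112 and 108 CPM in CD31DUX, against 28.5, 10.3 and 6.03 CPM in CD31WT (2.65 ± 0.42, adjusted p = 0.00175). Neither overlapped between the groups, and both calls held with any library left out.

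Dkk3 (ENSMUSG00000030772), a Dickkopf family member with a disputed effect on Wnt signals, had 18.5, 27.2, 21.7 and 30.6 CPM in CD31DUX, against 2.28, 10.5 and 10.1 CPM in CD31WT (1.69 ± 0.42, adjusted p = 0.0295). Fzd4 had 129, 127, 108 and 108 CPM in CD31DUX, against 152, 180 and 216 CPM in CD31WT (-0.63 ± 0.16, adjusted p = 0.0352). Neither overlapped between the groups. The Dkk3 call was lost without any one of 4 of the 7 libraries (CD31DUX replicates 2, 3 and 4, CD31WT replicate 3, adjusted p up to 0.0726). The Fzd4 call was lost without any one of 6 (all but CD31WT replicate 1, adjusted p up to 0.238). With no filter both calls were lost, and with only the compared groups that of Dkk3.

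FAP markers moved with these changes: all 8 were called higher, and they summed to 11602 to 13702 CPM in CD31DUX and 3334 to 5834 CPM in CD31WT, with none at 0. In the FAP libraries the same sum was 60992 to 64615 CPM in PDGDUX and 45399 to 54966 CPM in PDGWT. Sfrp1, Sfrp4 and Dkk3 were also higher in sorted WT FAPs than in sorted WT endothelial cells (3.14, 3.46 and 3.26 on the log2 scale, all called). Per 1000 CPM of summed FAP markers, Sfrp1 was at 3.28 ± 0.289 CPM in CD31DUX (SD, n = 4) and 3.45 ± 1.52 CPM in CD31WT (n = 3), and Dkk3 at 1.87 ± 0.305 CPM and 2.06 ± 1.45 CPM. On this scale, which was chosen after the data were seen and not tested, the groups overlapped for both genes.

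Sfrp4 differed on the same scale, at 7.18 ± 1.66 CPM in CD31DUX (4.76 to 8.53) and 3.14 ± 1.58 CPM in CD31WT (1.81 to 4.89), with 3.53 ± 0.398 CPM in PDGDUX and 3.35 ± 0.0795 CPM in PDGWT. The CD31DUX and CD31WT ranges just overlapped. Endothelial markers summed to 3743 to 4609 CPM in CD31DUX and 5616 to 6394 CPM in CD31WT, with none of 8 called, and Fzd4 per 1000 CPM of that sum was 29.1 ± 1.85 CPM and 30.9 ± 5.78 CPM. This scale was also chosen after the data were seen and not tested. In whole muscle Fzd4 on it was 256 ± 117 CPM in IDUX.2Weeks and 311 ± 159 CPM in WT.2Weeks, with overlap. At 16 weeks it was 155 ± 24.1 CPM in IDUX.16Weeks (128 to 186) and 340 ± 249 CPM in WT.16Weeks (190 to 713), without overlap. The value of 713 CPM was that of WT.16Weeks replicate 1, the library that stood apart. Lymphatic markers were called higher in 4 of 5 (3077 to 5692 CPM in CD31DUX, 556 to 817 CPM in CD31WT). Other marker sums did not overlap either: mural cell (581 to 808 and 1060 to 1388 CPM, 1 of 7 higher and 2 lower) and tendon cell (1759 to 2832 and 1091 to 1243 CPM, 1 of 5 higher). Muscle fibre markers, also without overlap, summed to 388 to 1097 CPM in CD31DUX and 110 to 294 CPM in CD31WT, with none of 8 called. Schwann cell (106 to 138 and 188 to 265 CPM, 1 of 6 lower), satellite cell (55.9 to 78.5 and 99.9 to 128 CPM) and blood markers (819 to 3952 and 6919 to 13763 CPM) were lower. The part of these cell types in the changes was not tested.

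**Figure D3:**
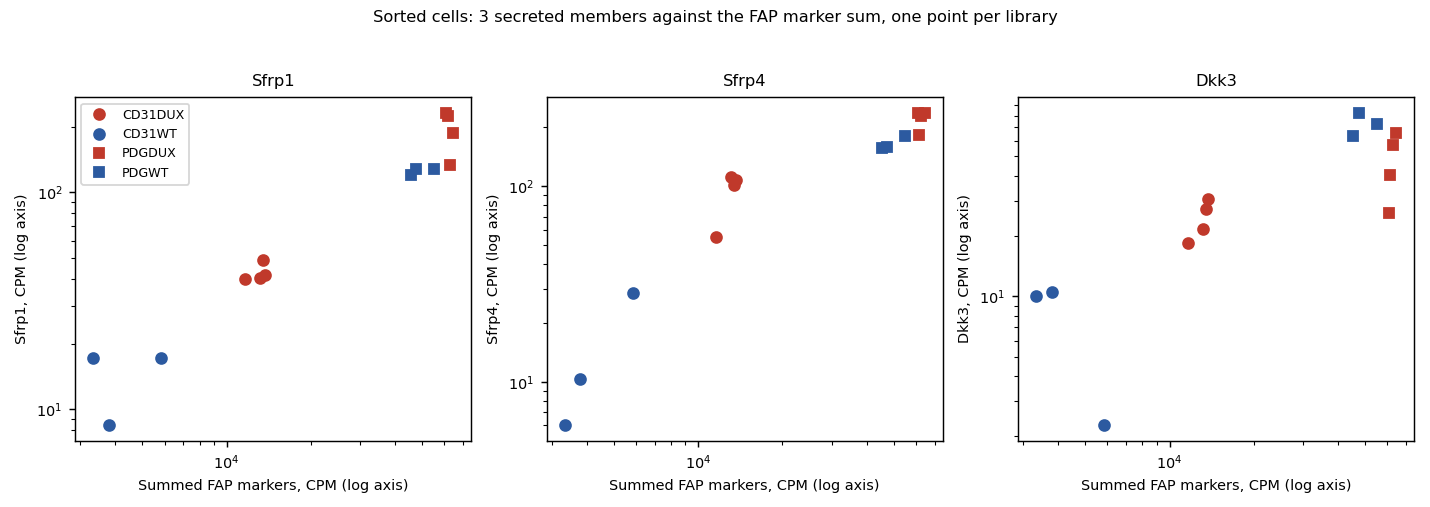
Sfrp1, Sfrp4 and Dkk3 in CPM (vertical log axes) against the summed CPM of 8 FAP markers (horizontal log axes) in each of the 14 sorted libraries, circles for CD31+ and squares for PDGFRa+ cells, DUX4 in red and WT in blue. The CD31DUX libraries lie between the CD31WT and the FAP libraries on the marker axis (11602 to 13702 CPM).

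In endothelial cells 3 of 76 tested genes of the pathway lists were called, 2 higher and 1 lower, with a median of 0.05, against 5.07% of all genes called. The heparan sulphate proteoglycan gene Gpc4 changed by 0.80 ± 0.20 (adjusted p = 0.0295, lost without any one of 4 libraries, up to 0.122), Myc by 0.68 ± 0.13 (adjusted p = 0.00614) and Ctnnbip1 by -0.80 ± 0.18 (adjusted p = 0.0125, lost without any one of 3 libraries, up to 0.0732). Myc averaged 858 ± 49.1 CPM in CD31DUX and 537 ± 64.3 CPM in CD31WT (SD, n = 4 and 3), beside 2243 ± 356 CPM in PDGDUX and 2155 ± 131 CPM in PDGWT.

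In FAPs, the fourth comparison, 2 of 38 tested members were called (5.26%), against 3.0% of all genes tested, and both are DNA-binding partners of beta-catenin that fell (1.77% of all genes were called lower). Lef1 had 0, 0.535, 0.0949 and 0.257 CPM in PDGDUX, against 5.5, 5.28 and 7.37 CPM in PDGWT. The groups lay far apart, with 9 counts in the 4 PDGDUX libraries and 301 in the 3 PDGWT libraries. Scaled to depth, Lef1 was 28.9-fold lower with DUX4 (95% counting interval 15 to 63.7), and the fitted change was -4.75 ± 0.97 (adjusted p = 0.0124), a call that held with any library left out (adjusted p up to 0.0422).

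Tcf7 (ENSMUSG00000000782) had 0.461, 0.428, 1.42 and 0.514 CPM in PDGDUX, against 2.41, 2.17 and 4.45 CPM in PDGWT (-2.08 ± 0.50, adjusted p = 0.0311). The groups did not overlap, but the call was lost without any one of 5 of the 7 libraries. These were PDGDUX replicates 1, 2 and 4 and PDGWT replicates 1 and 3 (adjusted p up to 0.139). The Tcf7 call was also lost with no filter, with limma voom and with only the compared groups. The remaining factors of this class were not called: Tcf7l1 averaged 59.4 ± 5.12 CPM in PDGDUX and 72.2 ± 6.02 CPM in PDGWT (adjusted p = 0.367), and Tcf7l2 63.9 ± 14 CPM and 83.3 ± 5.54 CPM (adjusted p = 0.32). Since Lef1 and Tcf7 are also genes of T cells, T cell genes chosen after the values were seen are given beside them: Cd3e was at 0 to 0.171 CPM in PDGDUX and 0 to 1.15 CPM in PDGWT, Cd3d at 0.171 to 0.553 CPM and 0.339 to 3.13 CPM, and Cd3g at 0 to 0.0857 CPM and 0 to 1.7 CPM. The 7 macrophage and leukocyte markers summed to 53.3 to 271 CPM in PDGDUX and 12.2 to 131 CPM in PDGWT with none called. The part of T cells in the result was not tested.

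**Figure D4:**
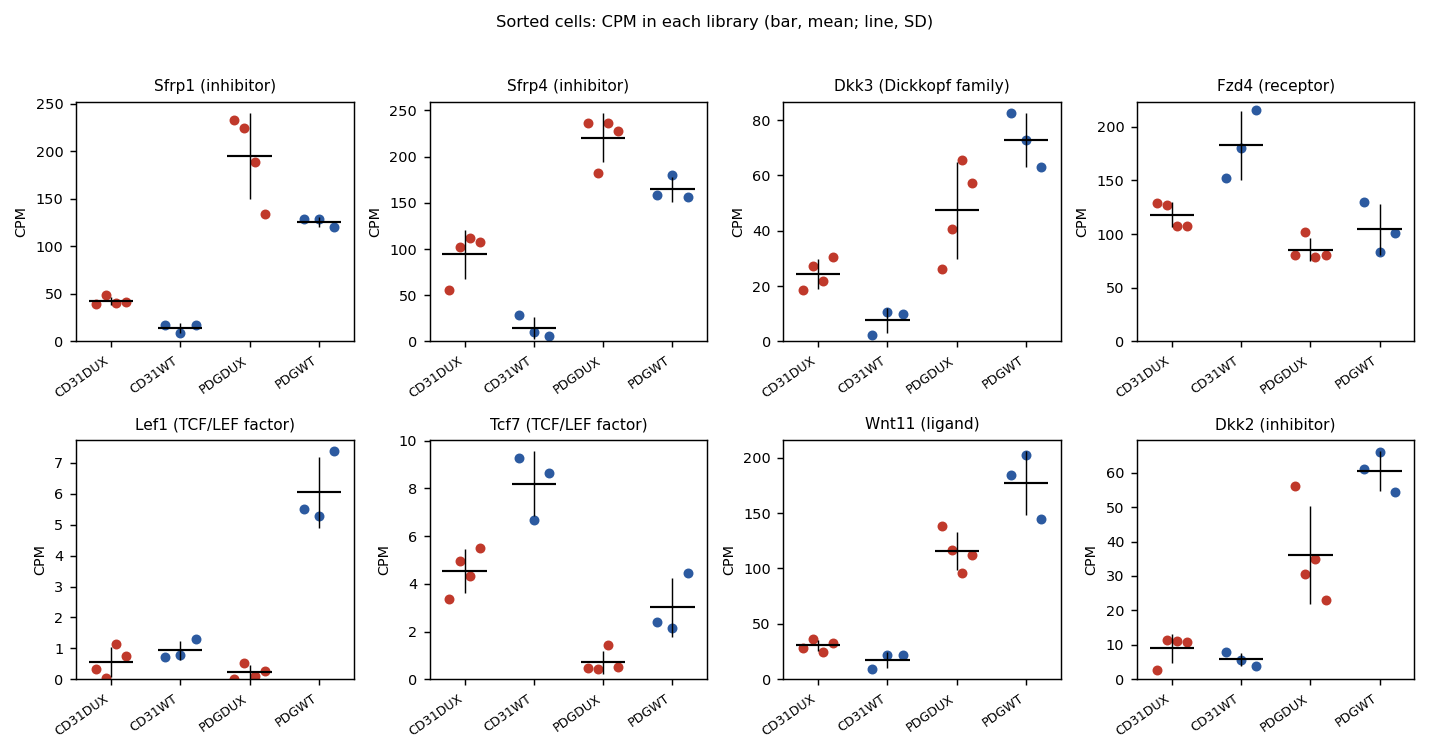
CPM (vertical axes, from 0) in each sorted library for the 7 members called in a sorted-cell comparison and for Dkk2, DUX4 in red left of WT in blue in each cell type; bars are means and lines SDs. Lef1 was at 0.535 CPM or less in every PDGDUX library and at 5.28 CPM or more in every PDGWT library, while Sfrp1, Sfrp4 and Dkk3 were higher in every CD31DUX library than in any CD31WT library.

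Lef1 was also low in endothelial cells, at 0.0527 to 1.15 CPM in CD31DUX and 0.726 to 1.3 CPM in CD31WT (-0.70 ± 0.85, adjusted p = 0.746), and the difference between its DUX4 effects in FAPs and in endothelial cells was not called (-4.05 ± 1.29, adjusted p = 0.133). A gene on the opposite strand, Gm43352, overlaps an exon of Lef1, and whether counting used strand is not given in the sources used here. The same holds for Tcf7l1 and Gm15401, which reached 10.3 CPM. Endothelial markers were at 110 to 186 CPM in PDGDUX and 245 to 307 CPM in PDGWT (2 of 8 lower), and tendon cell markers at 2287 to 2735 CPM and 717 to 1062 CPM (2 of 5 higher). Mural cell markers were at 501 to 666 CPM in PDGDUX and 411 to 437 CPM in PDGWT (1 of 7 higher and 2 lower). Schwann cell markers were at 18.6 to 37 CPM and 46.7 to 78.2 CPM (1 of 6 lower). FAP markers were at 60992 to 64615 CPM and 45399 to 54966 CPM (1 of 8 higher). Their part in the changes was not tested.

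Of 76 pathway genes tested in FAPs 1 rose and 4 fell, with a median of -0.08, against 1.23% of all genes called higher and 1.77% lower. Of the 11 common Wnt target genes among them, 1 rose and 3 fell. The smallest p was that of Gpc3, a cell-surface heparan sulphate proteoglycan that binds Wnts, which had 375, 414, 340 and 291 CPM in PDGDUX, against 977, 874 and 696 CPM in PDGWT (-1.26 ± 0.16, adjusted p = 0.000325). No PDGDUX library reached a PDGWT library, and the call held with any library left out.

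Apcdd1 and Nkd1, inhibitors of the pathway that are themselves Wnt targets, both fell. Apcdd1, which acts at the cell surface, had 15.7, 29.7, 16.4 and 11.7 CPM in PDGDUX, against 43, 48.4 and 51 CPM in PDGWT (-1.37 ± 0.34, adjusted p = 0.0386). Nkd1, which acts on Dishevelled inside the cell, had 10.2, 4.6, 9.68 and 2.57 CPM in PDGDUX, against 22.6, 32.4 and 18 CPM in PDGWT (-1.84 ± 0.44, adjusted p = 0.0314). Neither overlapped between the groups. The matricellular genes Ccn5 and Ccn4, both known as Wnt targets, moved in opposite directions: Ccn5 averaged 22.9 ± 9.24 CPM in PDGDUX and 54.1 ± 8.3 CPM in PDGWT (-1.24 ± 0.29, adjusted p = 0.0295), and Ccn4 17.6 ± 11.6 CPM and 3.15 ± 2.65 CPM (2.47 ± 0.58, adjusted p = 0.028). Calls other than that of Gpc3 were lost without single libraries: Apcdd1 in 6 of 7 cases (adjusted p up to 0.112), Ccn5 in 6 (up to 0.127), Nkd1 in 4 (up to 0.138) and Ccn4 in 3 (up to 0.125).

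The DUX4 effects in FAPs and in endothelial cells were then compared with each other. The difference was called for 2 of 38 members, against 2.25% of all genes, and both had a lower value in FAPs. Wnt11 (ENSMUSG00000015957), a ligand best known outside the beta-catenin branch, had 138, 117, 95.7 and 112 CPM in PDGDUX, against 184, 202 and 145 CPM in PDGWT, and 28.5, 36, 25.1 and 32.8 CPM in CD31DUX, against 9.23, 21.7 and 21.7 CPM in CD31WT. Lower values with DUX4 in FAPs (-0.62 ± 0.24, adjusted p = 0.206) stood beside higher ones in endothelial cells (0.80 ± 0.25, adjusted p = 0.0729). Neither was called alone in this fit, and the difference was -1.42 ± 0.34 (adjusted p = 0.0392). Under the alternatives Wnt11 passed in endothelial cells with DESeq2 and with no filter, and in FAPs with limma voom.

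Dkk3 had 26.2, 40.5, 65.7 and 57.1 CPM in PDGDUX, against 82.5, 72.7 and 63 CPM in PDGWT, groups that overlapped (-0.62 ± 0.39, adjusted p = 0.522), and its difference from the endothelial effect was -2.31 ± 0.57 (adjusted p = 0.0485). Both calls were fragile, lost without any one of 8 of 14 libraries for Wnt11 (adjusted p up to 0.101) and 11 of 14 for Dkk3 (up to 0.11). Per 1000 CPM of FAP markers, Wnt11 was at 1.86 ± 0.326 CPM in PDGDUX and 3.59 ± 0.353 CPM in PDGWT, and at 2.36 ± 0.324 CPM in CD31DUX and 4.61 ± 2.65 CPM in CD31WT, lower on average with DUX4 in both cell types. The difference for Sfrp4 was close to a call (-2.23 ± 0.55, adjusted p = 0.0529).

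The sorted WT libraries show which members were higher in which sort without DUX4. The CD31WT libraries also carried FAP markers, at 3334 to 5834 CPM. Their mural cell markers summed to 1060 to 1388 CPM, against 411 to 437 CPM in PDGWT. Satellite cell markers summed to 99.9 to 128 CPM and 4.27 to 12 CPM, and Schwann cell markers to 188 to 265 CPM and 46.7 to 78.2 CPM. A higher value in CD31WT is therefore not assigned to endothelial cells, and the part of these cell types was not tested. WT FAPs differed from WT endothelial cells in 25 of 38 members (65.8%), against 31.1% of all genes, with 17 higher in FAPs and 8 lower. Of 10 ligands tested 5 were higher and 1 lower, of 8 inhibitors 5 were higher and 2 lower, and of 11 receptors 4 were higher and 3 lower.

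Among members higher in FAPs, Wnt7b had 2.04, 1.56 and 0.165 CPM in PDGWT and no count in CD31WT, at least 7.52-fold higher against 3 counts per endothelial library. The ligand Wnt5a had 24.7, 42.3 and 32.1 CPM in PDGWT, against 6.12, 1.34 and 0.532 CPM in CD31WT (3.61 ± 0.61, adjusted p = 0.000294). Dkk2, an inhibitor that binds Lrp5 and Lrp6, had 61.1, 66 and 54.5 CPM in PDGWT, against 7.83, 5.71 and 3.96 CPM in CD31WT (3.37 ± 0.46, adjusted p = 3.11e-05). Wnt11 and Sfrp4 completed the 5 largest increases (3.34 ± 0.28, adjusted p = 1.12e-07; 3.46 ± 0.45, adjusted p = 3.77e-05). The Wnt7b call was lost without any one of 4 libraries (adjusted p up to 0.0642).

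Of those lower in FAPs, the receptor Fzd6 had 1.55, 0.542 and 1.7 CPM in PDGWT, against 20.3, 22.4 and 19.8 CPM in CD31WT (-4.02 ± 0.48, adjusted p = 5.7e-06). Gm26704, on the opposite strand, overlaps an exon of Fzd6 and reached 6.1 CPM, and without strand their reads cannot be told apart. The Wnt-binding inhibitor Wif1 had 0.68, 1.35 and 1.37 CPM in PDGWT, against 18.8, 20.2 and 12.2 CPM in CD31WT (-3.90 ± 0.74, adjusted p = 0.000617). Sfrp5 had 2.35, 2.44 and 4.23 CPM in PDGWT, against 24.5, 24.5 and 24.8 CPM in CD31WT (-3.03 ± 0.85, adjusted p = 0.0133). None of these overlapped between the cell types. Wnt4 (-2.0 ± 0.72, adjusted p = 0.0433) and Tcf7 (-1.44 ± 0.50, adjusted p = 0.0391) followed, and the calls of Sfrp5, Wnt4 and Tcf7 were lost without any one of 2, 4 and 4 of the 6 libraries (adjusted p up to 0.0576, 0.197 and 0.139).

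In WT whole muscle, 5 of 36 members differed between 16 and 2 weeks (13.9%), against 13.6% of all genes, and time and collection of the libraries cannot be told apart. Dkk2 had 35.9, 26.2, 16.6 and 16.8 CPM in WT.16Weeks, against 4.49, 10.6, 11, 5.88 and 2.55 CPM in WT.2Weeks (1.8 ± 0.47, adjusted p = 0.0211). Frzb, a secreted Frizzled-related protein, had 1.17, 4.66, 7.36 and 9.42 CPM in WT.16Weeks, against 37.8, 13.3, 22.9, 23.9 and 14.7 CPM in WT.2Weeks (-2.03 ± 0.48, adjusted p = 0.0128). Axin1 had 20.8 to 29.3 CPM in WT.16Weeks and 14.2 to 16.2 CPM in WT.2Weeks (0.67 ± 0.12, adjusted p = 0.00305). None of these 3 overlapped between the times.

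Wnt4, a ligand expressed in muscle fibres, was higher in WT.16Weeks than in WT.2Weeks (0.81 ± 0.24, adjusted p = 0.0325), as was Rspo3 (1.23 ± 0.37, adjusted p = 0.0388), whose ranges overlapped. The calls of Wnt4, Rspo3 and Dkk2 were lost without any one of 7, 5 and 2 of the 9 libraries (adjusted p up to 0.108, 0.131 and 0.0678). With 2-week replicates 4 and 5 alone, Frzb, Axin1, Wnt4 and Rspo3 did not pass (adjusted p = 0.18, 0.143, 0.28 and 0.0657), and with 2-week replicates 1 to 3 alone, Wnt4 and Rspo3 did not (0.0886 and 0.0902). FAP markers were lower in WT.16Weeks in 3 of 8. Their part in the differences was not tested.

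Levels between genes can be compared only per length, here as mean CPM per kilobase of merged exons. Ctnnb1, which encodes beta-catenin, was the highest member in each of the 8 groups and did not overlap the next one, with 45.6 and 43.4 CPM per kilobase in IDUX.2Weeks and WT.2Weeks, 53.7 and 46.8 in IDUX.16Weeks and WT.16Weeks, 103 and 113 in CD31DUX and CD31WT, and 80.3 and 65.2 in PDGDUX and PDGWT. In whole muscle receptors came next: Fzd4, Fzd7 and Fzd9 followed in IDUX.2Weeks (11, 8.23 and 6.17), WT.2Weeks (21.6, 11.6 and 11.5) and WT.16Weeks (16, 15.8 and 14.5). In IDUX.16Weeks the order was Fzd9 (15.2), Wnt4 (10.6), Fzd7 (7.74) and Fzd4 (7.69). Neighbours in these orders overlapped between libraries.

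In sorted cells secreted members were among the highest. After Ctnnb1 came Sfrp4 (22.6 CPM per kilobase), Fzd4 (17.6) and Tcf7l1 (13.3) in CD31DUX, and Fzd4 (27.1), Tcf7l1 (15.1) and Sfrp5 (12.9) in CD31WT. In PDGDUX the order was Sfrp4 (52.9), Sfrp1 (44.7) and Wnt11 (28), and in PDGWT Wnt11 (42.9), Sfrp4 (39.4) and Sfrp1 (28.9). Sfrp4 and Fzd4 in CD31DUX, Tcf7l1 and Sfrp5 in CD31WT, Sfrp4, Sfrp1 and Wnt11 in PDGDUX, and Wnt11 and Sfrp4 in PDGWT overlapped their neighbours.

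**Figure D5:**
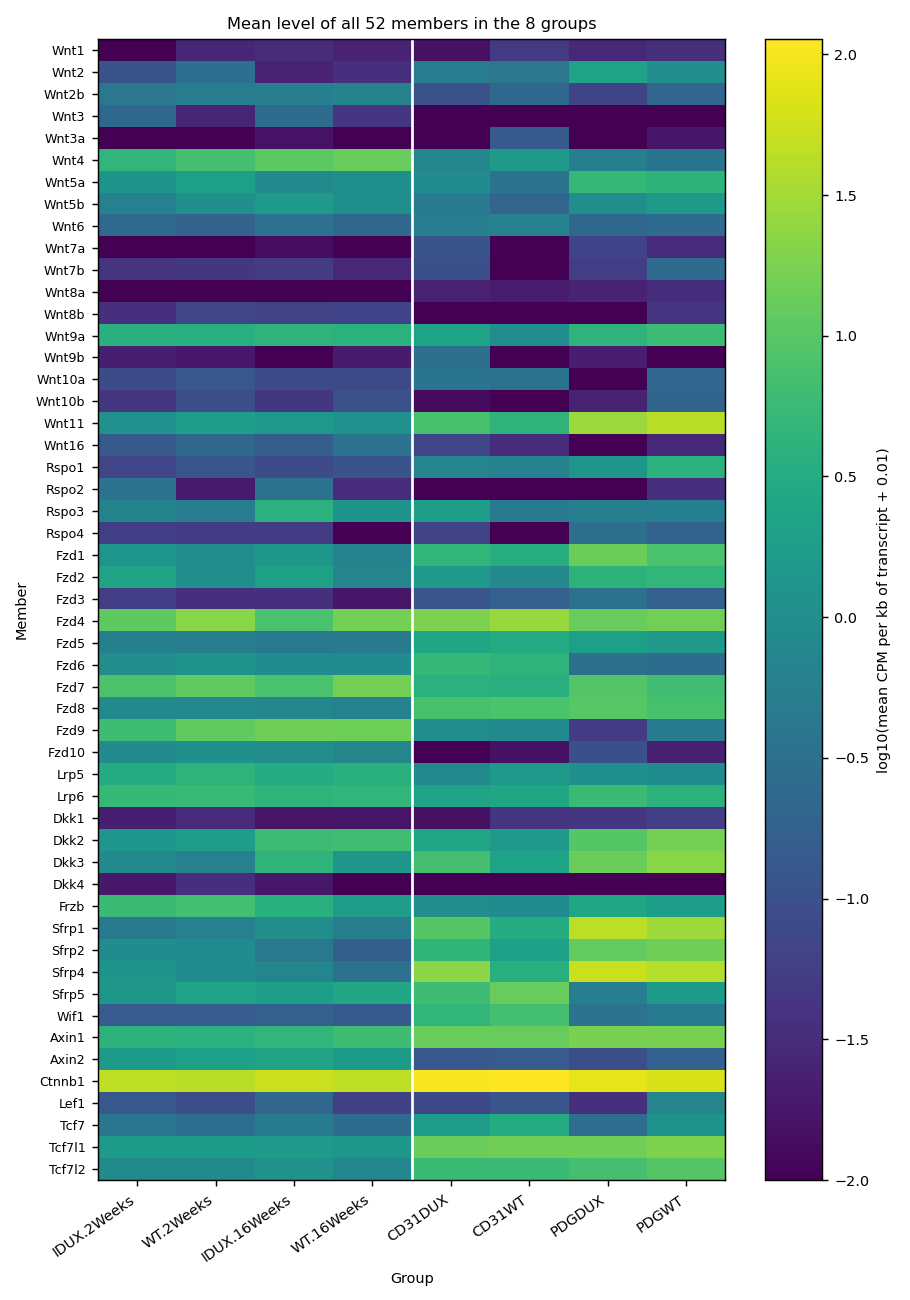
Mean CPM per kilobase of merged exons (colour, log10 scale) of the 52 members (rows) in the 8 groups (columns), whole muscle left of the white line and sorted cells right of it, DUX4 left of WT in each pair. Ctnnb1 is the brightest row throughout, and Wnt3 and Rspo2 are brighter in both whole-muscle DUX4 columns than in the WT columns beside them.

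Of the members not called with DUX4, 17 averaged 5 CPM or more in some group. Among the ligands, Wnt4 averaged 19.8 ± 2.42 CPM in IDUX.2Weeks and 30.7 ± 4.17 CPM in WT.2Weeks (-0.63 ± 0.23, adjusted p = 0.0627) and 44.2 ± 22.5 CPM in IDUX.16Weeks and 53.9 ± 12.9 CPM in WT.16Weeks. Wnt5a averaged 9.51 and 15.7 CPM in IDUX.2Weeks and WT.2Weeks, and 38.6 and 33 CPM in PDGDUX and PDGWT. Wnt9a averaged 7.45 ± 1.8 CPM in CD31DUX and 3.16 ± 1.12 CPM in CD31WT (1.24 ± 0.36, adjusted p = 0.0605). Other tools called some of these: Wnt4 at 2 weeks passed with DESeq2, with limma voom and with only the compared groups, Wnt5a at 2 weeks with limma voom and with only the compared groups, and Wnt9a in endothelial cells with DESeq2. Rspo1, an R-spondin, averaged 2.73 ± 1.04 CPM in PDGDUX and 7.43 ± 1.78 CPM in PDGWT (-1.45 ± 0.64, adjusted p = 0.296).

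Of the receptors, Fzd9 averaged 14.2 ± 4.71 CPM in IDUX.2Weeks and 26.4 ± 10.7 CPM in WT.2Weeks (-0.89 ± 0.31, adjusted p = 0.0545), but 34.8 and 33.2 CPM in IDUX.16Weeks and WT.16Weeks. At 2 weeks it passed with RLE size factors, DESeq2, limma voom, a term for the split of the 2-week libraries and replicates 1 to 3 alone, and Fzd7 passed with only the compared groups. Fzd5 averaged 16.9 and 21.5 CPM, Fzd6 24.4 and 20.9 CPM, and Fzd8 44.5 and 48.5 CPM in CD31DUX and CD31WT. The co-receptor Lrp6 averaged 78.6 ± 13.8 CPM in PDGDUX and 54.2 ± 7.33 CPM in PDGWT (0.54 ± 0.17, adjusted p = 0.105) and 59.7 to 75.4 CPM over the 4 whole-muscle groups. With DESeq2 Lrp6 passed in FAPs.

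The secreted inhibitors as a class had a median change of 1.10 in whole muscle at 16 weeks with none of 7 called. The median was 0.01 over all genes and 1.37 over the FAP markers. Per 1000 CPM of summed FAP markers, a scale chosen after the data were seen, Sfrp1 was at 4.38 CPM in IDUX.16Weeks and 5.7 CPM in WT.16Weeks. Sfrp4 was at 2.88 and 2.84 CPM, Sfrp2 at 0.819 and 0.858 CPM, Dkk3 at 13.4 and 10.5 CPM and Dkk2 at 24 and 95.3 CPM. The Dkk2 mean in WT.16Weeks had an SD of 111 CPM and a range of 32.9 to 261 CPM. Its highest value was that of WT.16Weeks replicate 1, with 35.9 CPM of Dkk2 and a FAP marker sum of only 137 CPM. Each overlapped between the groups on this scale. Dkk3 had 27.3, 7.78, 9.66 and 13.6 CPM in IDUX.16Weeks, against 0.912, 12.3, 2.72 and 3.03 CPM in WT.16Weeks (1.62 ± 0.61, adjusted p = 0.0607), and Frzb averaged 12.1 ± 6.93 CPM and 5.65 ± 3.57 CPM (1.14 ± 0.49, adjusted p = 0.0962). Both overlapped between the groups, and Dkk3 passed at 16 weeks with DESeq2 and limma voom. Dkk2 averaged 36.1 ± 14.1 CPM in PDGDUX and 60.6 ± 5.76 CPM in PDGWT (adjusted p = 0.4), Sfrp2 25.8 and 32.4 CPM, Sfrp5 11.8 and 24.6 CPM in CD31DUX and CD31WT (adjusted p = 0.5), and Wif1 11.2 and 17.1 CPM in CD31DUX and CD31WT.

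In the relay, Ctnnb1 averaged 237 and 225 CPM in IDUX.2Weeks and WT.2Weeks, 279 and 243 CPM in IDUX.16Weeks and WT.16Weeks, 537 and 585 CPM in CD31DUX and CD31WT, and 417 and 339 CPM in PDGDUX and PDGWT, with adjusted p from 0.128 to 0.614. With DESeq2 Ctnnb1 passed in FAPs and for the difference between the cell types. Tcf7l1 averaged 5.53 to 6.26 CPM over the whole-muscle groups and 52.4 to 72.2 CPM over the sorted ones, and Axin2 was under 1 CPM on average in all 4 sorted groups.

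The other 19 members stayed below 5 CPM on average in every group and were not called with DUX4. They are Wnt1, Wnt2, Wnt2b, Wnt3a, Wnt5b, Wnt6, Wnt7a, Wnt7b, Wnt8a, Wnt8b, Wnt9b, Wnt10a, Wnt10b, Wnt16, Rspo4, Fzd3, Fzd10, Dkk1 and Dkk4. The highest value of any of them in any library was 8.07 CPM, for Fzd3 in PDGDUX replicate 3. Most ligand genes of the family were thus at a low level or not detectable at this depth in these tissues.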

How the data were processed

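RNA was measured by RNA-seq, with 50 base paired reads per the labels' protocols. Whole-muscle libraries were made from 500 ng of RNA with a KAPA mRNA kit, and those of sorted cells with a low-input cDNA kit and Nextera XT. The deposited files hold estimated counts per Ensembl gene made by the authors with Salmon 0.6.0, with CASAVA 1.8 and mm10 also named, per the submitters' processing notes. Which annotation release was used, and how transcripts were summed to genes, is not given in the sources used here. Symbols, lengths and positions came from GENCODE vM21 (GRCm38), and promoters from RefSeq.

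The expected counts, as deposited by the authors, were rounded and tested with edgeR 4.0.16 (R 4.3.3; TMM scaling, filterByExpr with a minimum count of 10, robust quasi-likelihood), fitting 18 whole-muscle and 14 sorted libraries separately, since kit and input differ. P-values were adjusted by Benjamini-Hochberg over all genes of a fit. CPM are TMM-scaled. No 2 libraries of a group agreed within sampling noise, and each was treated as 1 replicate. This does not show that each library is a separate animal. The procedure was tested on simulated counts.

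Members, marker lists, pathway lists and tests were chosen with earlier results of these data known. Every member called with DUX4 or for a difference of effects is named with each library's value, uncalled members at 5 CPM or more in a group with means, and up to 5 called members each way for the WT comparisons. Up to 2 pathway genes per list and comparison are named by p. Alternatives were RLE size factors, no filter, a minimum of 30 counts, DESeq2 1.42.0, limma 3.58.1 voom, only the compared groups, a split of the 2-week libraries (a term for it, and each part alone), and each library left out. The DUX4 transgene was not analysed here.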

Additional observations from a re-analysis of the deposited data

Results flagged for a closer look

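The effects of DUX4 in FAPs and in endothelial cells differed for Wnt11 by -1.42 ± 0.34 (adjusted p = 0.0392, edgeR) and for Dkk3 by -2.31 ± 0.57 (adjusted p = 0.0485). For Wnt11, 4 of 4 PDGDUX libraries were below every PDGWT library and 4 of 4 CD31DUX libraries were above every CD31WT library. Of the 8 FAP markers 8 were higher in CD31DUX than in CD31WT, and both genes were higher in PDGWT than in CD31WT. Their part in the difference was not tested.

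Tcf7 in PDGDUX replicate 3 lay far from the other PDGDUX libraries, at 1.42 CPM, against 0.428 to 0.514 CPM. It is 1 of 36 groups of 4 or 5 libraries looked at, and chance alone sets apart about 1 in 20 groups.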

How the results depend on the processing

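No paired analysis was possible because the labels give no replicate numbers that groups share; the numbers used here only name the libraries of a group in the order of their records. Of 1041 values for 38 member results and 30 pathway gene results under the alternatives, 902 kept direction and side of the threshold, 139 kept direction but lost the call and 0 reversed. At 2 weeks the 5 members called became 3 with a minimum of 30 counts, which removes the low-count Wnt3 and Rspo2 from the test, 8 with limma voom and 1 in replicates 4 and 5 alone, with 4 to 5 when 1 library was left out. At 16 weeks the 10 members called became 7 with a minimum of 30 counts, which removes Lef1, Rspo2 and Wnt3 from the test. They became 8 with only the compared groups, 8 with WT.16Weeks replicates 1 and 4 both left out and 12 with limma voom. With 1 library left out the count was 10 to 11. The Axin1 call at 16 weeks was lost when only the compared groups were fitted (adjusted p = 0.0561), and Wnt3 was not tested there. In WT muscle over time, 5 became 2 with only the compared groups and 1 with 2-week replicates 4 and 5 alone, with 2 to 4 when 1 library was left out. In endothelial cells 4 became 7 with DESeq2, which added Rspo3, Wnt11 and Wnt9a, and 2 to 5 with 1 library left out. They became 3 with no filter, which lost Dkk3 and Fzd4 and added Wnt11. With only the compared groups they became 3, without Dkk3. In FAPs 2 became 1 with no filter or only the compared groups, 5 with DESeq2 and 4 with limma voom, and 1 to 2 with 1 library left out. Tcf7 was the FAP call lost with no filter, only the compared groups or limma voom. DESeq2 added Ctnnb1, Fzd1 and Lrp6 in FAPs, and limma voom added Fzd1, Sfrp1 and Wnt11. Of these FAP calls, 3 with DESeq2 and 2 with limma voom were higher with DUX4. For the difference between cell types, 2 became 1 with RLE size factors or no filter, 6 with DESeq2, and 0 to 4 with 1 library left out. Between WT FAPs and WT endothelial cells 25 became 19 to 23 with 1 library left out. Of the pathway genes, the 21 called at 2 weeks became 6 in replicates 4 and 5 alone, 35 at 16 weeks became 25 with only the compared groups, and with DESeq2 3 became 6 in endothelial cells and 5 became 8 in FAPs. The causes were not tested. Depth limits Wnt3, Rspo2 and Lef1, which rest on 3 to 9 counts in their lower group.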
